A study of Homo sapiens with 9 samples.

Results

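The cadherins and protocadherins of MDA-MB-231 cells are described here at the level of their RNA. The members are the 89 genes with at least 1 protein-coding transcript whose symbol is CDH or PCDH followed by a number, or a symbol of the clustered PCDHA, PCDHB or PCDHG series, out of 58219 genes quantified. They comprise 23 CDH genes, 13 non-clustered PCDH genes, 15 PCDHA genes, 16 PCDHB genes and 22 PCDHG genes, and 1 further symbol of the same form was left out because it has no protein-coding transcript. The rule uses symbols and transcript types and no measured value, but it was set with earlier results of these data known. Of the 89 members, 27 passed the filter on low counts and were tested, among 15233 tested genes, and 62 were not tested.

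MDA-MB-231 is a human breast cancer line without the 3 receptors that define the other clinical types, grown here in DMEM with 10% FBS. The series holds 9 libraries in 3 groups of 3: control cells with a lentiviral scramble RNA, shAPT1 cells with a lentiviral short hairpin against APT1 selected for 72 hours in puromycin, and APT1wt cells with lentiviral expression of APT1wt. APT1, encoded by LYPLA1, is a thioesterase that removes palmitate from proteins, and the study asked about its part in how Notch and Wnt signalling are divided between daughter cells. All 3 groups therefore carry a lentiviral construct, but no group carries an empty expression vector, so that an effect of APT1wt cannot be told apart from an effect of its vector. Whether the replicates of a group are separate cultures or infections is not stated, so the p-values speak only of the spread among these libraries, which may be technical.

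Cadherins are calcium-dependent adhesion proteins whose extracellular repeats bind the same or related cadherins on a neighbouring cell. The classical cadherins bind catenins inside the cell and through them the actin cytoskeleton, and a loss of CDH1 (E-cadherin) with a gain of CDH2 (N-cadherin) or CDH11 is the textbook cadherin switch of mesenchymal-type carcinoma cells. Protocadherins lack the catenin-binding tail. The clustered PCDHA, PCDHB and PCDHG genes lie in a row on chromosome 5, each with its own promoter and variable exon, are best known from neurons, and in PCDHA and PCDHG are spliced to constant exons shared along the cluster.

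Libraries held 12381931 to 18667383 estimated reads, of which 2085 to 4495 fell on the members. As a check of the labels, the mean level of LYPLA1 was 86.8 TPM (a level per transcript length that sums to the same total in every library) in control cells, 35.1 TPM with the hairpin and 170 TPM with APT1wt. The mesenchymal-type markers VIM (2267 TPM in control) and CD44 (866 TPM) were high and ESR1 and PGR averaged at most 0.146 TPM in any group. CD44 was called lower in shAPT1 (-0.66 on the log2 scale) and VIM lower in APT1wt (-0.25). Of the same list MSN was called lower in shAPT1 and APT1wt (-0.19 and -0.48), FN1 higher in both (1.18 and 1.08), and ZEB1 passed in neither. The keratins KRT8 and KRT18, luminal epithelial markers, averaged 188 and 229 TPM in control and were called higher in both engineered groups. KRT19, EPCAM and GATA3 of that list passed in neither. They measured 0.30, 0.10 and 0.19 in shAPT1, and 0.28, -0.15 and -0.14 in APT1wt. CDH1 of that list is given below. Of 11 neuronal markers 4 were tested, MAP2 was called higher in shAPT1 and SNAP25 and SYT1 lower in APT1wt, STMN2 and ELAVL4 had no read in any library, and the list summed to 2.92 to 4.04 TPM in control, 2.63 to 3.17 TPM in shAPT1 and 1.45 to 1.87 TPM in APT1wt. The 8 fibroblast markers summed to 7.73 to 9.45 TPM in control and 10.9 to 17.8 TPM in the other libraries, with COL3A1, DCN and LUM at no more than 0.254 TPM in any group mean. The 3 of them that were tested, COL1A1, COL1A2 and PDGFRB, were called higher in shAPT1 (0.51, 1.69 and 1.39 on the log2 scale), and COL1A1 and PDGFRB in APT1wt as well (0.54 and 1.14). The 9 endothelial markers summed to 45.9 to 53.4 TPM in control and 63.5 to 110 TPM in the other libraries, most of it ESAM, with CDH5 and VWF at no more than 0.0621 TPM in any group mean. ESAM was called higher in shAPT1 and in APT1wt (0.44 and 1.23), TIE1 higher in shAPT1 (2.08) and KDR lower in APT1wt (-0.55). Of 9 leukocyte markers PTPRC, CD3E and MS4A1 were at no more than 0.0883 TPM in any group mean, while HLA-DRA and CD74 averaged 155 and 423 TPM in control and were called lower in both engineered groups. LCP1 of the same list was called higher in both, with means of 10.1 TPM in control cells, 41.8 in shAPT1 cells and 61.9 with APT1wt. Whether any of these markers bears on the members' values was not tested. The shAPT1 libraries differed most among themselves, with replicate 1 farthest from the other two.

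Reads of the members were concentrated in 3 cadherins. CDH24 at 13.8 TPM, CDH4 at 12.8 TPM and CDH11 at 9.89 TPM had the highest control means, followed by PCDHGC3 at 6.46, PCDHGB2 at 4.07, PCDHGB1 at 3.29, PCDHB13 at 2.36, PCDHB14 at 1.57 and PCDHB9 at 1.44 TPM. In order of control level, the neighbours CDH24 and CDH4 overlapped between libraries, and so did PCDHGB2 and PCDHGB1, and PCDHB14 and PCDHB9. All members together summed to 67.2 to 67.7 TPM in control, 89.0 to 114 TPM in shAPT1 and 76.7 to 84.0 TPM in APT1wt. CDH11, CDH4 and CDH24 made up 54.2% ± 4.3 (SD, n = 3) of that sum in control, 71.9% ± 0.5 (SD, n = 3) in shAPT1 and 72.7% ± 2.3 (SD, n = 3) in APT1wt. CDH11 alone went from 14.7% ± 0.58 of the members' TPM in control to 43.2% ± 3.0 in shAPT1 and 31.4% ± 3.5 in APT1wt (SD, n = 3 each).

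At an adjusted p of 0.05, 10 of the 27 tested members were called in shAPT1 against control, 6 higher and 4 lower, where 24.4% of all tested genes were called, 12.8% higher and 11.6% lower. In APT1wt against control 13 were called, 4 higher and 9 lower, against 23.4% of all tested genes, 11.8% higher and 11.6% lower. In shAPT1 against APT1wt 11 were called, 10 higher in shAPT1 and 1 lower, against 25.1% of all tested genes, 12.7% higher and 12.4% lower. The median log2 fold change of the 27 was -0.20, -0.14 and 0.24 in these comparisons, beside -0.004, -0.004 and 0.001 over all tested genes. Without shAPT1 replicate 2 the first count was 6, and without APT1wt replicate 1, 2 or 3 the direct count was 7, 6 or 7. Adjusted for transcript length, 4, 10 and 5 members were called. The comparisons with control share the control libraries, and so the calls in them are not independent. Bulk RNA cannot tell fewer cells with a transcript apart from less of it per cell.

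**Figure D1:**
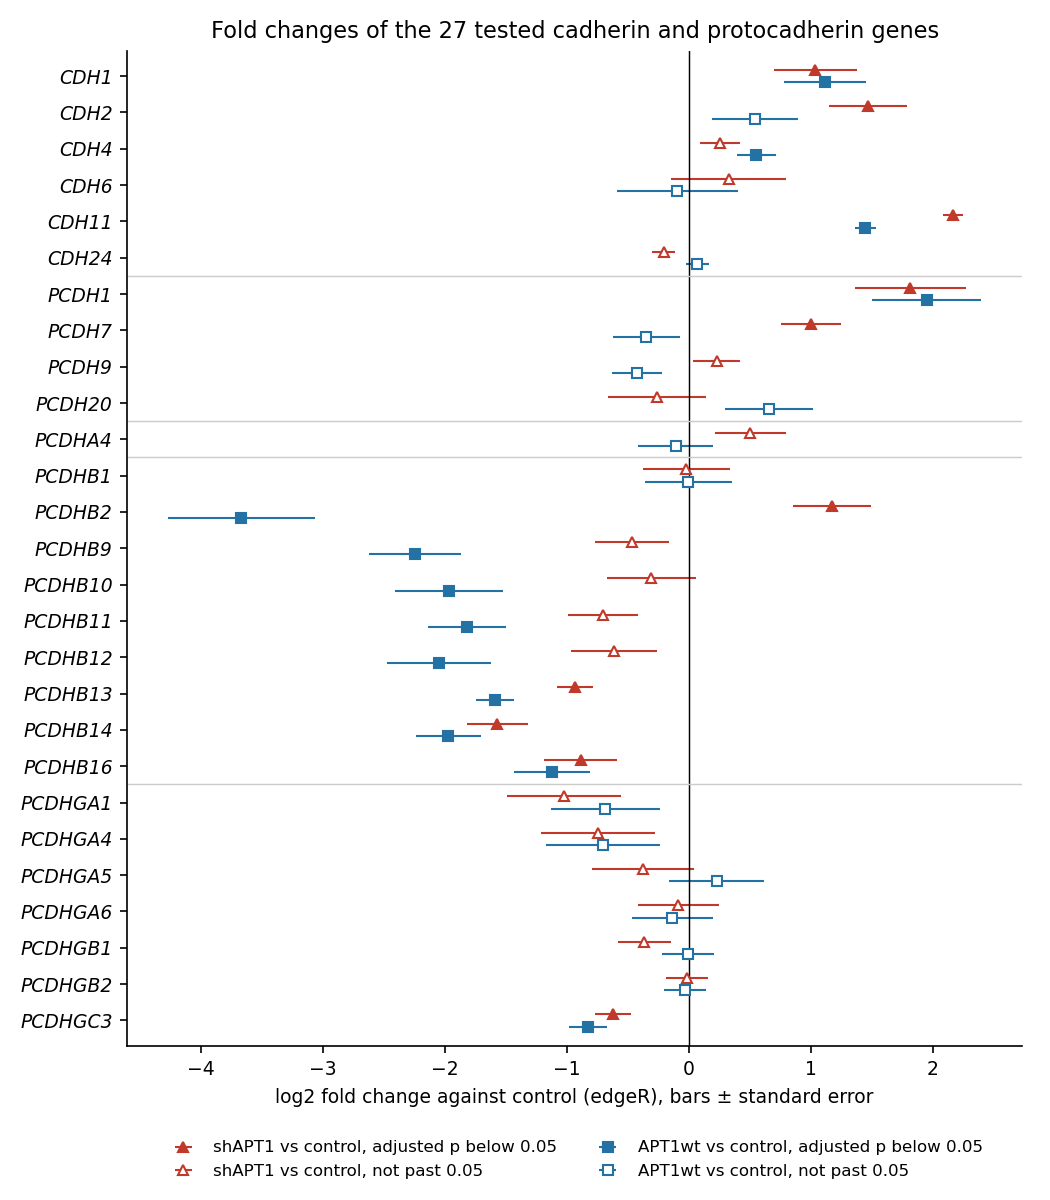
Log2 fold change against control (horizontal axis, bars ± standard error) of the 27 tested members, grouped by class, for shAPT1 (red triangles) and APT1wt (blue squares), with filled symbols for an adjusted p below 0.05. CDH11 lies to the right in both comparisons at 2.17 and 1.45, and 8 of the 9 tested PCDHB genes lie to the left with filled symbols in APT1wt.

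CDH11, a type II classical cadherin of mesenchymal and bone-forming cells (chr16:64943753-65126112, minus strand, GRCh38), had the smallest adjusted p of any member in both comparisons with control. Its level was 9.74, 10.4 and 9.56 TPM in the control libraries, 41.0, 39.0 and 49.8 TPM in shAPT1, and 21.5, 27.4 and 26.1 TPM in APT1wt. The 3 groups did not overlap: every shAPT1 library was above every APT1wt library, and these were above every control library. CDH11 rose by a log2 fold change of 2.17 ± 0.08 (SE) in shAPT1, a 4.49-fold change with adjusted p = 1.1e-09, and of 1.45 ± 0.08 in APT1wt, a 2.73-fold change with adjusted p = 4.7e-08. It was also higher in shAPT1 than in APT1wt, by 0.72 ± 0.08 with adjusted p = 1.3e-05. All 3 calls were kept in every alternative run. The fibroblast markers COL1A1 and PDGFRB were called higher in the same groups (values above). COL1A2 of the same list was called higher in shAPT1 only and measured -0.59 in APT1wt (adjusted p = 0.36). Any part of these markers in the CDH11 values was not tested.

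The CDH11 rise was seen in both of its transcripts that carried most reads. The 13-exon protein-coding transcript ENST00000268603.8 (6857 bases) averaged 2.30 ± 0.63 TPM in control cells, 8.54 ± 2.4 TPM in shAPT1 cells and 5.60 ± 0.97 TPM in APT1wt (SD, n = 3). The shorter protein-coding transcript ENST00000566827.5 (2395 bases) averaged 4.45 ± 0.19, 22.4 ± 1.3 and 13.1 ± 1.8 TPM (SD, n = 3). Another, ENST00000394156.7, had no read in 2 of 3 control libraries and between 51.3 and 313 estimated reads in the shAPT1 libraries. Transcript levels were not tested, since reads on shared exons are divided between transcripts by estimation.

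The nearest tested protein-coding genes on either side of CDH11 did not follow it as a group. Among the 5 nearest tested protein-coding genes on either side that are no members, none was called higher in shAPT1. In that group 3 were called lower, namely NDRG4, GOT2 and CMTM3. In APT1wt 1 was called, CMTM3, which was higher by 0.26 ± 0.09 with adjusted p = 0.046. The nearest such gene on the left ends at position 58734357 and the nearest on the right starts at position 66508003, and CDH11 lies between them. Genes at these distances cannot show whether the sequence next to CDH11 changed with it.

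**Figure D2:**
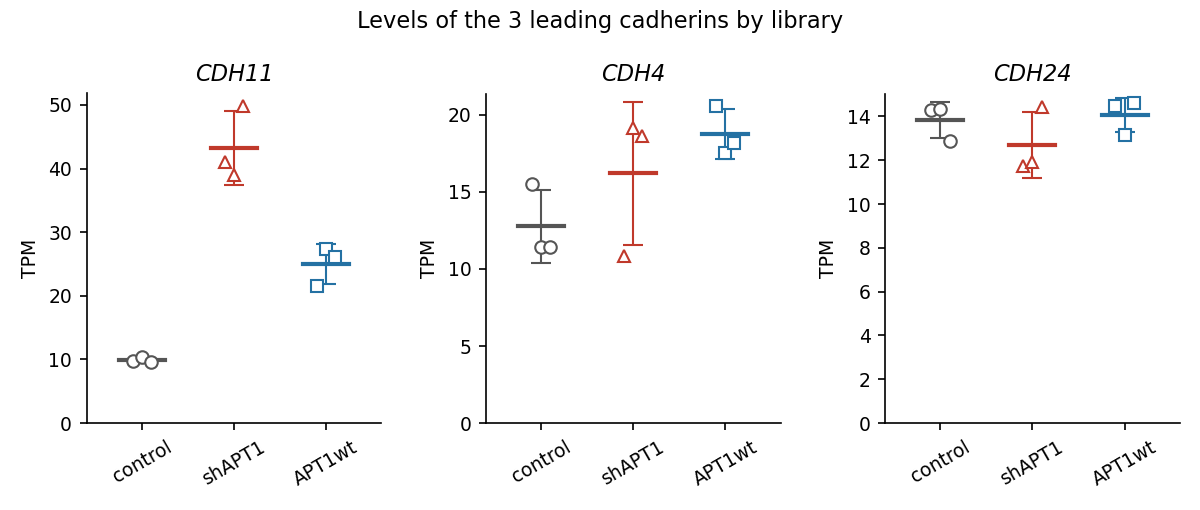
TPM of CDH11, CDH4 and CDH24 (vertical axes, each from 0) in the 9 libraries by group; symbols are libraries, horizontal lines are means and bars are SD. CDH11 is separate in all 3 groups, the 3 APT1wt libraries of CDH4 lie above its 3 control libraries, and CDH24 lies between 11.7 and 14.6 TPM throughout.

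CDH4 (R-cadherin, a type I classical cadherin known from retina and muscle) measured 15.5, 11.4 and 11.4 TPM in control, 10.8, 19.2 and 18.6 TPM in shAPT1, and 20.6, 17.5 and 18.2 TPM in APT1wt. The APT1wt libraries were all above the control libraries, and shAPT1 spanned both, with replicate 1 below every control library. CDH4 rose in APT1wt by 0.56 ± 0.16 with adjusted p = 0.021. That call was lost without either of control replicates 2 and 3 or either of APT1wt replicates 1 and 3 (log2 fold changes of 0.45 to 0.56, adjusted p of 0.057 to 0.096). It was also lost with DESeq2 (adjusted p = 0.062), adjustment for transcript length (0.072) and the deposited table (0.072). In shAPT1 the difference was 0.26 ± 0.16 with adjusted p = 0.27, and without shAPT1 replicate 1 it was 0.44 with adjusted p = 0.012.

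CDH24, a type II cadherin, measured 14.3, 14.4 and 12.9 TPM in control, 11.7, 11.9 and 14.4 TPM in shAPT1, and 14.5, 13.2 and 14.6 TPM in APT1wt. The 3 groups overlapped. Neither comparison with control passed, at -0.20 ± 0.09 with adjusted p = 0.14 in shAPT1 (-0.31 and 0.019 without shAPT1 replicate 3) and 0.07 ± 0.09 with adjusted p = 0.64 in APT1wt. CDH24 was called lower in shAPT1 than in APT1wt by -0.27 ± 0.09 with adjusted p = 0.045, and 10 of the 16 alternatives lost this call, among them each omission of an APT1wt library or of shAPT1 replicate 1 or 2 (adjusted p of 0.07 to 0.15).

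The classical cadherins of the E-to-N switch were all low. CDH1, which holds epithelial cells together, had 10.0, 9.3 and 6.0 estimated reads in the control libraries, 14.0, 25.8 and 21.0 in shAPT1, and 24.0, 13.0 and 27.2 in APT1wt. In TPM these were 0.555, 1.39 and 0.383 in control, 0.647, 1.29 and 0.434 in shAPT1, and 0.586, 0.566 and 2.76 in APT1wt, so that the engineered groups were above control in reads and overlapped it in TPM. CDH1 was called higher by 1.04 ± 0.34 in shAPT1 with adjusted p = 0.038, and by 1.12 ± 0.34 in APT1wt with adjusted p = 0.027. Adjustment for transcript length took these to 0.13 (adjusted p = 0.93) and 0.74 (adjusted p = 0.55). Of 16 alternatives 11 lost the first call and 7 the second, among them for the first the omission of any control library or of shAPT1 replicate 2 or 3 (adjusted p of 0.051 to 0.17), and for the second that of control replicate 2 or 3 or APT1wt replicate 1 or 3 (adjusted p of 0.053 to 0.14).

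CDH2, the cadherin of nerve, heart and mesenchymal cells, measured 0.578, 0.293 and 0.485 TPM in control, 1.36, 0.948 and 0.629 TPM in shAPT1, and 0.502, 0.648 and 0.712 TPM in APT1wt. Every shAPT1 library was above every control library, and APT1wt overlapped both. CDH2 rose in shAPT1 by 1.47 ± 0.32 with adjusted p = 0.0043, from 33.0 reads in the 3 control libraries to 105.0 in the 3 shAPT1 libraries. Adjusted for transcript length, the difference was 1.06 with adjusted p = 0.084. In APT1wt it was 0.54 ± 0.35 with adjusted p = 0.29. The direct comparison put CDH2 higher in shAPT1 than in APT1wt by 0.93 ± 0.30 with adjusted p = 0.034, a call that 9 of 16 alternatives lost, among them the omission of any APT1wt library or of shAPT1 replicate 1 or 2 (adjusted p of 0.06 to 0.13).

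CDH3 (P-cadherin, of basal epithelial cells) had too few reads to be tested. It measured 0.0603, 0 and 0.231 TPM in control, 0.160, 0.114 and 0.222 TPM in shAPT1, and 0.413, 0.464 and 0.581 TPM in APT1wt. The APT1wt libraries were the highest in TPM, but their 11 reads against 4 in control gave a ratio of 2.39 with a 95% counting interval of 0.707 to 10.3. CDH6, the remaining tested CDH gene, did not pass in any comparison, at 0.33 ± 0.47 in shAPT1 and -0.09 ± 0.50 in APT1wt.

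The other 17 CDH genes were not tested, and CDH16 had no read in any library, which allows up to 3 reads of the 137116468 in all libraries. CDH13, the cadherin held to the membrane by a lipid anchor, averaged 0.980 ± 0.29 TPM in shAPT1, 0.187 ± 0.16 in control and 0.170 ± 0.28 in APT1wt (SD, n = 3). CDH18, a type II cadherin of the nervous system, averaged 0.805 ± 0.36, 0.194 ± 0.17 and 0.195 ± 0.14 TPM in the same order. Their totals were 22.0 and 21.1 reads in shAPT1 and at most 5.2 reads in either other group.

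Among the non-clustered protocadherins 4 of 13 were tested. PCDH1, found in airway and skin epithelium, measured 0.0896, 0.313 and 0.651 TPM in control, 1.61, 2.04 and 1.02 TPM in shAPT1, and 1.62, 1.29 and 2.02 TPM in APT1wt. Both engineered groups lay above every control library and overlapped each other. Reads of PCDH1 summed to 26.0 in control, 109.0 in shAPT1 and 114.0 in APT1wt. PCDH1 rose by 1.82 ± 0.45 in shAPT1 with adjusted p = 0.0092, and by 1.95 ± 0.45 in APT1wt with adjusted p = 0.0062, while the direct difference was -0.13 ± 0.36 with adjusted p = 0.83. Without shAPT1 replicate 2 the first of these was 1.43 with adjusted p = 0.055. PCDH1 lies at chr5:141853111-141879246, beyond the end of the protocadherin clusters on the same chromosome, and its direction was the opposite of that of the PCDHB sum.

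PCDH7, a delta protocadherin, measured 0.430, 0.416 and 0.554 TPM in control, 0.692, 1.13 and 1.32 TPM in shAPT1, and 0.493, 0.425 and 1.20 TPM in APT1wt. The shAPT1 libraries were above the control libraries, and APT1wt replicate 3 stood in the shAPT1 range. PCDH7 rose in shAPT1 by 1.00 ± 0.24 with adjusted p = 0.0078, and was higher in shAPT1 than in APT1wt by 1.35 ± 0.25 with adjusted p = 0.0012. Adjusted for transcript length these were 1.10 (adjusted p = 0.067) and 0.60 (adjusted p = 0.33), and the first was 0.82 (adjusted p = 0.052) without shAPT1 replicate 2. In APT1wt against control the log2 fold change was -0.35 ± 0.27 with adjusted p = 0.4, although the group mean in TPM was higher, at 0.706 against 0.467.

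PCDH9, also a delta protocadherin, averaged 0.451 ± 0.10 TPM in control cells, 0.487 ± 0.073 in shAPT1 cells and 0.281 ± 0.089 in APT1wt (SD, n = 3). It passed only in the direct comparison, 0.65 ± 0.20 higher in shAPT1 with adjusted p = 0.026, and 5 of 16 alternatives lost the call, among them the omission of APT1wt replicate 1 or 2 or shAPT1 replicate 2 (adjusted p of 0.098 to 0.11). Against control APT1wt measured -0.42 ± 0.20 (adjusted p = 0.16), and -0.76 without APT1wt replicate 3 (adjusted p = 0.011). PCDH20 passed in none of the 3 comparisons, at -0.26 ± 0.40 in shAPT1 and 0.66 ± 0.36 in APT1wt. PCDH8 and PCDH19 had no read in any library, and the other untested PCDH genes had at most 49.0 reads over the 9 libraries.

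**Figure D3:**
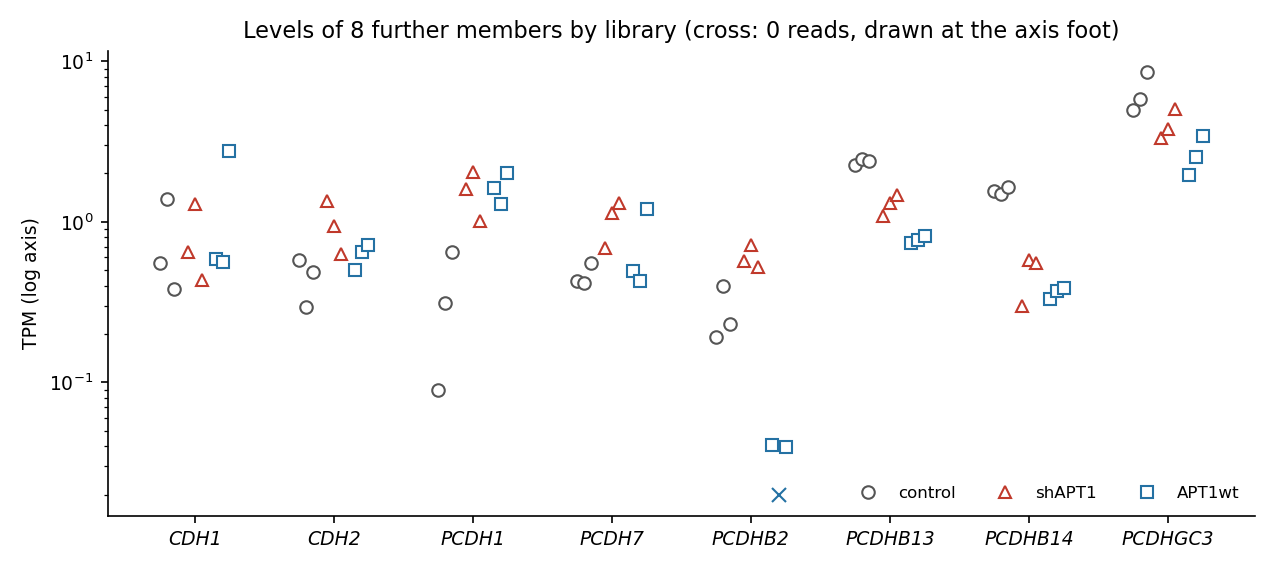
TPM (log axis) of 8 members below the 3 leading cadherins, in the 9 libraries, with 1 symbol per library and shape and colour for the group. The APT1wt libraries of PCDHB2 are the lowest, with 1 at 0 reads, and the groups of PCDHB13 are separate with control at 2.24 to 2.45 TPM.

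The clustered protocadherins span chr5:140786136-141512981 in GENCODE 29 (GRCh38), in the order PCDHA, PCDHB and PCDHG. Most PCDHB genes consist of a single coding exon, share none of it with each other, and are close copies. Only genes with a symbol starting in CDH or PCDH were searched for shared 31-base words. Between 43.9% (PCDHB8) and 99.5% (PCDHB1) of the words of the leading PCDHB transcripts occur in no other such gene. Reads can therefore be divided unsafely between neighbours, and the cluster sum is given first.

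The PCDHB genes together measured 9.15, 9.10 and 9.19 TPM in control, 5.58, 5.24 and 5.76 TPM in shAPT1, and 2.56, 2.35 and 3.09 TPM in APT1wt. The 3 groups were separate, with every APT1wt library below every shAPT1 library and these below every control library. The PCDHB sum fell by 0.72 ± 0.09 on the log2 scale in shAPT1 (adjusted p = 5.2e-05), and by 1.66 ± 0.10 in APT1wt (adjusted p = 4.5e-08), a 3.16-fold fall. The difference between shAPT1 and APT1wt was 0.94 ± 0.10 with adjusted p = 1.2e-05. These 3 calls were kept in every alternative run. CDH11 and the PCDHB sum thus had different orders of the groups: CDH11 was highest in shAPT1 and PCDHB highest in control.

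Most PCDHB promoter windows carry a shared sequence, shown here as a description of these promoters. Promoters of clustered protocadherins are known for a conserved element with a CGCT core, which the insulator protein CTCF binds. RefSeq windows (GRCh38.p14) from 250 bases before to 50 bases after each start were at hand for 70 of the 89 members and for 14 of the 16 PCDHB genes. The 9-base word shared by most PCDHB windows was GGTGGCGCT, found in 13 of the 14. On both strands it occurred in 0.501% of all 35116 windows and in no window of the 12 CDH, 11 PCDH, 13 PCDHA or 20 PCDHG genes with an entry. It begins between positions -84 and -2 relative to the start. The windows of PCDHB13 (chr5:141213669-141213968, plus strand) and PCDHB1 (chr5:141051124-141051423, plus strand) follow, and then 59 bases around the word in PCDHB2, PCDHB9, PCDHB10, PCDHB12, PCDHB14 and PCDHB16, all on the plus strand and with the word in capitals.
PCDHB13: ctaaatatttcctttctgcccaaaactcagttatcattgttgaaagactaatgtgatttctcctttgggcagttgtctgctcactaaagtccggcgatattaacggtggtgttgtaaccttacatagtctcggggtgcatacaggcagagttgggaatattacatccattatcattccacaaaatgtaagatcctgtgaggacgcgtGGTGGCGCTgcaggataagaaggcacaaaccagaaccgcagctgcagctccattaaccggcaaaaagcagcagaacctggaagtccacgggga
PCDHB1: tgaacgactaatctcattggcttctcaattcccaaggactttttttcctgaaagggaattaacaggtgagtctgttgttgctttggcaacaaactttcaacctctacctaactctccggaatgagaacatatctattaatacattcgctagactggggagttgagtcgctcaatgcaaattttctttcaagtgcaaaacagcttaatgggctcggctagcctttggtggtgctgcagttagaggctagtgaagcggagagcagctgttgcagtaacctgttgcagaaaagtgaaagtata
PCDHB2 (chr5:141094530-141094588): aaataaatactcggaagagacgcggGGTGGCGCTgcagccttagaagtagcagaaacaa
PCDHB9 (chr5:141187060-141187118): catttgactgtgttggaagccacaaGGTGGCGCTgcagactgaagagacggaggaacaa
PCDHB10 (chr5:141192285-141192343): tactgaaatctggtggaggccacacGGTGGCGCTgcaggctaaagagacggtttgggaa
PCDHB12 (chr5:141208629-141208687): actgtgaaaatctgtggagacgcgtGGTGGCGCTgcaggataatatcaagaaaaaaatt
PCDHB14 (chr5:141223249-141223307): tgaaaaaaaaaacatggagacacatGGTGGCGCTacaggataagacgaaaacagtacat
PCDHB16 (chr5:141182296-141182354): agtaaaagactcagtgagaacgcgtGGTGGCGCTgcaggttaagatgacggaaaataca
PCDHB1 is the only window of the 14 in which these letters were not found. The untested PCDHB3, PCDHB4, PCDHB5, PCDHB7, PCDHB8 and PCDHB15 hold them too. The word was chosen on the PCDHB windows themselves, so its frequency there and its absence from the other members are descriptions. The PCDHA and PCDHG windows have common words of their own that also hold CGCT. These were GATGTCGCT in 9 of 13 PCDHA genes and GCGCCGCTG in 10 of 20 PCDHG genes. Whether the word bears on the levels of any gene was not tested. Protein binding and methylation at these promoters were not measured in these libraries.

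Of the 9 tested PCDHB genes, 8 fell in APT1wt and none rose, where 11.6% of all tested genes were called lower and 11.8% higher. In shAPT1 3 fell and 1 rose, where 11.6% were called lower and 12.8% higher. The filter on low counts limits the APT1wt count. PCDHB2, PCDHB9, PCDHB10 and PCDHB12 had 2.1, 14.0, 15.1 and 11.2 reads over the 3 APT1wt libraries. They passed the filter on reads of the other groups. With at least 20 reads in 3 libraries, which tests fewer genes, 4 members of any class were called lower in APT1wt instead of 9. The PCDHB sum holds all 16 genes. PCDHB1, the first gene of the cluster, passed in neither comparison. It averaged 0.175 ± 0.092 TPM in control cells, 0.180 ± 0.022 in shAPT1 cells and 0.169 ± 0.019 in APT1wt (SD, n = 3). Its log2 fold changes were -0.02 ± 0.36 and -0.004 ± 0.356, and with standard errors of this size a change could be missed.

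PCDHB13, the most abundant PCDHB gene with 25.9% of the control TPM of the cluster, measured 2.24, 2.45 and 2.40 TPM in control, 1.08, 1.31 and 1.48 TPM in shAPT1, and 0.734, 0.774 and 0.816 TPM in APT1wt. The groups were separate, in the order control, shAPT1, APT1wt. PCDHB13 fell by 0.93 ± 0.15 in shAPT1 (adjusted p = 0.00038) and by 1.59 ± 0.16 in APT1wt (adjusted p = 6.1e-06). It was 0.66 ± 0.16 higher in shAPT1 than in APT1wt, with adjusted p = 0.0095.

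PCDHB14, its neighbour, measured 1.55, 1.49 and 1.66 TPM in control, 0.299, 0.576 and 0.555 TPM in shAPT1, and 0.330, 0.370 and 0.389 TPM in APT1wt. Both engineered groups were below control and overlapped each other. The gene fell by 1.57 ± 0.25 in shAPT1 (adjusted p = 0.00045) and by 1.97 ± 0.26 in APT1wt (adjusted p = 9.7e-05), and the direct difference of 0.40 ± 0.29 did not pass (adjusted p = 0.35). The calls of PCDHB13 and PCDHB14 against control were kept in every alternative run.

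PCDHB9, PCDHB10, PCDHB11 and PCDHB12 fell in APT1wt and passed no test in shAPT1 against control. PCDHB9 measured 1.30, 1.60 and 1.42 TPM in control, 1.05, 0.514 and 0.598 TPM in shAPT1, and 0.371, 0.125 and 0.353 TPM in APT1wt. PCDHB10 measured 0.571, 0.348 and 0.745 TPM in control, 0.605, 0.449 and 0.422 TPM in shAPT1, and 0.0967, 0.0899 and 0.218 TPM in APT1wt. PCDHB11 measured 1.39, 0.782 and 0.798 TPM in control, 0.723, 0.542 and 0.776 TPM in shAPT1, and 0.333, 0.258 and 0.248 TPM in APT1wt. In each of the 3 genes every APT1wt library was below every control and every shAPT1 library. The log2 fold change in APT1wt was -2.24 ± 0.38 for PCDHB9 (adjusted p = 0.00064), -1.97 ± 0.44 for PCDHB10 (adjusted p = 0.0053) and -1.82 ± 0.32 for PCDHB11 (adjusted p = 0.0009). PCDHB12, a lower gene with means of 0.386 TPM in control cells, 0.258 in shAPT1 cells and 0.111 in APT1wt, changed by -2.05 ± 0.43 in APT1wt (adjusted p = 0.0031).

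The same genes were higher in shAPT1 than in APT1wt in the direct test, PCDHB9 by 1.78 ± 0.39 (adjusted p = 0.0042), PCDHB10 by 1.66 ± 0.45 (adjusted p = 0.015), PCDHB11 by 1.11 ± 0.33 (adjusted p = 0.024) and PCDHB12 by 1.44 ± 0.45 (adjusted p = 0.03). Omission of 1 APT1wt library ended some of these calls, for PCDHB10 replicate 1 or 2 (adjusted p of 0.059 and 0.06), for PCDHB11 replicate 2 or 3 (0.082 and 0.089) and for PCDHB12 replicate 1 or 3 (0.077 and 0.13). That of PCDHB12 was lost without shAPT1 replicate 2 or 3 as well (0.07 and 0.067). That of PCDHB9 was lost only with adjustment for transcript length (1.44, adjusted p = 0.054) and in the authors' deposited table (1.17, adjusted p = 0.069).

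PCDHB16 measured 0.343, 0.764 and 0.507 TPM in control, 0.218, 0.342 and 0.329 TPM in shAPT1, and 0.227, 0.188 and 0.639 TPM in APT1wt. The shAPT1 libraries were below the control libraries, and APT1wt replicate 3 stood within the control range. PCDHB16 was called lower by -0.89 ± 0.30 in shAPT1 (adjusted p = 0.045) and by -1.12 ± 0.31 in APT1wt (adjusted p = 0.018). Of 15 alternatives 11 lost the first call, the omission of each control or shAPT1 library among them (adjusted p of 0.063 to 0.16), and 7 lost the second, with APT1wt replicates 1 and 2 and control replicates 2 and 3 (0.053 to 0.079). Adjusted for transcript length, the values were -0.86 (adjusted p = 0.25) and -0.64 (adjusted p = 0.41).

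PCDHB2 went in opposite directions in the engineered groups. It measured 0.191, 0.398 and 0.232 TPM in control, 0.574, 0.717 and 0.520 TPM in shAPT1, and 0.0404, 0 and 0.0397 TPM in APT1wt. The groups were separate, with shAPT1 highest and APT1wt near 0. Summed over each group these were 26 reads in control cells, 70 in shAPT1 cells and 2 in APT1wt. Scaled to library size, control held 15.0 times the reads of APT1wt (95% counting interval 3.75 to 130), and shAPT1 held 34.6 times (9.23 to 291). PCDHB2 fell in APT1wt with adjusted p = 0.00054, and the direct comparison had adjusted p = 1.3e-05. The rise in shAPT1 was 1.18 ± 0.32 with adjusted p = 0.015, and it was lost without control replicate 1 or 3 or shAPT1 replicate 2 (adjusted p of 0.056 to 0.066). The rise was also lost with DESeq2 (adjusted p = 0.1), adjustment for transcript length (0.07) and the deposited table (0.17). The 59 bases around the shared word of PCDHB2 are among those shown above, and any part of the word in these levels was not tested.

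**Figure D4:**
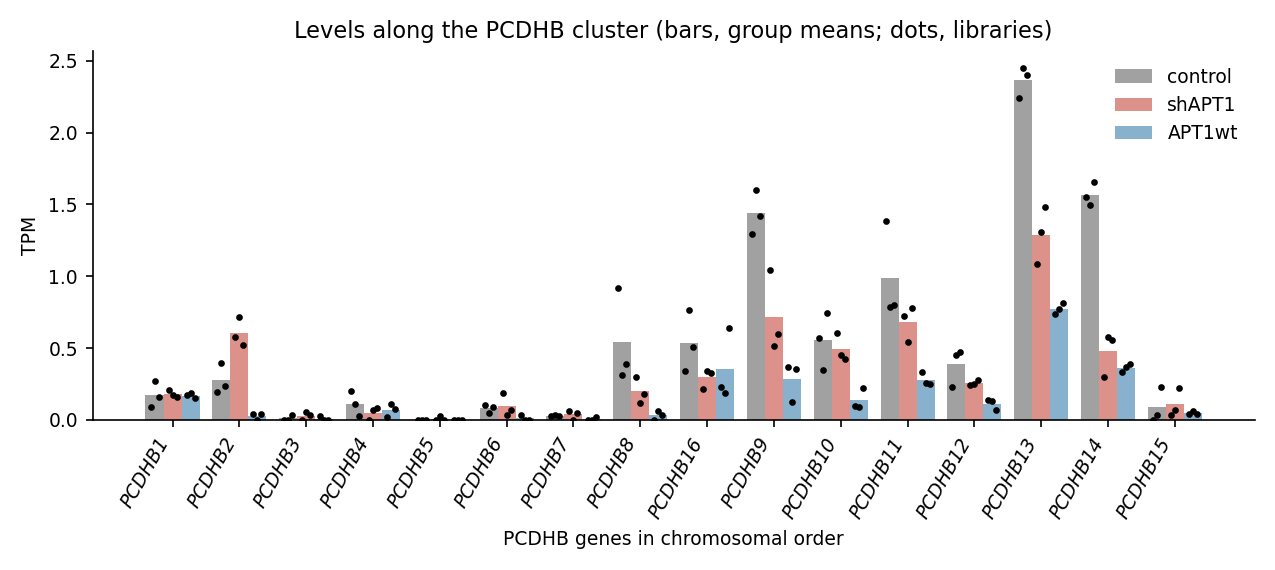
TPM (vertical axis) of the 16 PCDHB genes in chromosomal order, with bars for group means and dots for the 9 libraries. Levels are highest from PCDHB9 to PCDHB14, with PCDHB13 at 2.36 TPM in control, and the PCDHB2 bar is highest in shAPT1.

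The untested PCDHB genes had few reads. PCDHB8, whose sequence is the least unique, averaged 0.538 ± 0.33 TPM in control cells, 0.199 ± 0.092 in shAPT1 cells and 0.0312 ± 0.029 in APT1wt (SD, n = 3), with 40.6, 15.8 and 2.5 estimated reads. The other 6 untested PCDHB genes had at most 16.4 reads each over all 9 libraries. PCDHB13 kept a share of the cluster's TPM between 23.4% and 29% in the 3 groups, PCDHB14 went from 17.1% in control to 8.63% in shAPT1, and PCDHB2 from 2.99% in control to 10.9% in shAPT1 and 1.0% in APT1wt.

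The PCDHG genes together measured 13.8, 18.0 and 19.3 TPM in control, 10.1, 11.4 and 16.0 TPM in shAPT1, and 12.1, 12.1 and 12.3 TPM in APT1wt. The APT1wt libraries were all below the control libraries, and shAPT1 replicate 3 was within the control range. The PCDHG sum was called lower in shAPT1 by -0.38 ± 0.12 (adjusted p = 0.034), and the call was lost without control replicate 2 or 3 or shAPT1 replicate 1 or 2 (log2 fold changes of -0.36 to -0.25, adjusted p of 0.084 to 0.13). It was also lost with library totals alone (adjusted p = 0.058) and with only the groups compared in the fit (adjusted p = 0.056). In APT1wt the change was -0.30 ± 0.12 with adjusted p = 0.089, which passed when the filter was dropped (adjusted p = 0.036) or with only the groups compared (adjusted p = 0.01). The direct difference was -0.08 ± 0.12 with adjusted p = 0.69.

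PCDHGC3, a C-type gene near the end of the cluster, had the highest control level of the PCDHG genes. Of the 31-base words of its leading transcript, 54.1% occur in no other gene with a symbol starting in CDH or PCDH. It measured 4.95, 5.84 and 8.59 TPM in control, 3.32, 3.76 and 5.08 TPM in shAPT1, and 1.97, 2.55 and 3.42 TPM in APT1wt. The APT1wt libraries were below the control libraries, and shAPT1 replicate 3 was above the lowest control library. PCDHGC3 fell by 0.62 ± 0.15 in shAPT1 (adjusted p = 0.0076) and by 0.83 ± 0.15 in APT1wt (adjusted p = 0.0014), and the direct difference of 0.20 ± 0.16 did not pass (adjusted p = 0.38). Adjusted for transcript length, the first was -0.72 with adjusted p = 0.064. No other tested PCDHG gene passed in any comparison. PCDHGB2 averaged 4.07, 3.56 and 3.55 TPM in the order control, shAPT1, APT1wt, PCDHGB1 averaged 3.29, 2.63 and 2.82 TPM, and PCDHGA4 averaged 0.715, 0.432 and 0.427 TPM. PCDHGA4 measured -0.75 ± 0.47 in shAPT1 with adjusted p = 0.27, and without shAPT1 replicate 3 it was -1.48 with adjusted p = 0.044. Untested PCDHGC4 averaged 0.287 TPM in control and 0.564 TPM in APT1wt, of which 1 APT1wt library gave all reads.

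The 3 exons at the end of the PCDHG cluster are shared by its genes, and transcripts that hold only a variable exon were counted apart from those that reach the shared exons. Variable-exon transcripts took 42.0% to 45.3% of PCDHG reads in control, 33.8% to 37.5% in shAPT1 and 35.6% to 37.9% in APT1wt. Every control library was thus above every library of the other groups, in estimated reads. In TPM, transcripts with the shared exons averaged 9.07 ± 1.7, 6.57 ± 2.2 and 6.50 ± 0.58 in control, shAPT1 and APT1wt (SD, n = 3), and variable-exon transcripts 7.94 ± 1.2, 5.93 ± 0.95 and 5.65 ± 0.61. The separation did not hold in TPM. Variable-exon transcripts exceeded those with the shared exons in shAPT1 replicate 1 (5.19 against 4.88 TPM) and APT1wt replicate 2 (6.24 against 5.88 TPM), and in no control library. These shares were not tested.

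The PCDHA genes together were near the limit of detection, at 0.279, 0.274 and 0.204 TPM in control, 0.456, 0.454 and 0.367 TPM in shAPT1, and 0.391, 0.314 and 0.473 TPM in APT1wt. Control was the lowest in TPM, and the engineered groups overlapped. Neither sum passed, at 0.55 ± 0.25 in shAPT1 (adjusted p = 0.14) and 0.10 ± 0.27 in APT1wt (adjusted p = 0.82). PCDHA4 was the only PCDHA gene tested and passed in no comparison, and 5 of the 15 had no read in any library.

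**Figure D5:**
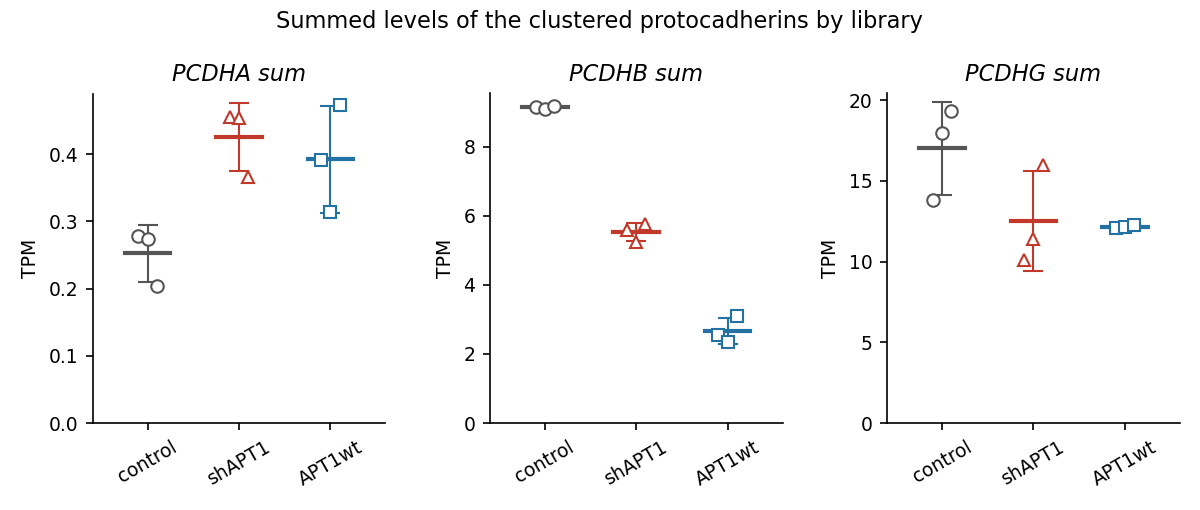
Summed TPM of the PCDHA, PCDHB and PCDHG genes (vertical axes, each from 0) in the 9 libraries by group; symbols are libraries, lines are means and bars are SD. PCDHB steps down from about 9.14 TPM in control to 5.52 in shAPT1 and 2.67 in APT1wt, while PCDHG in APT1wt lies at 12.1 to 12.3 TPM and PCDHA stays below 0.48 TPM.

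The tested protein-coding genes in and around the clusters that are no members did not fall with the PCDHB genes. TAF7, a transcription factor IID subunit gene at chr5:141260225-141320821 between the PCDHB and PCDHG genes, averaged 88.2 TPM in control cells, 93.4 in shAPT1 cells and 90.4 in APT1wt. Its log2 fold changes were 0.01 ± 0.06 (adjusted p = 0.92) and 0.05 ± 0.06 (adjusted p = 0.6). Of 11 such neighbours, TAF7 and 5 on either side, none was called lower in either comparison with control. IK was called higher in both and ARAP3 was higher in APT1wt.

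Some genes of a list of catenins and other adherens junction partners rose. Of CTNNA1, CTNNB1, CTNND1 and JUP, only CTNNA1 was called in shAPT1. Of 20 catenins and adherens junction partners 16 were tested, of which 8 were called higher and 1 lower in shAPT1, and 7 higher and 1 lower in APT1wt, with a median log2 fold change of 0.18 in both, beside 24.4% and 23.4% of all tested genes called and medians of -0.004. CTNNA1 (alpha-catenin), which links to actin, rose by 0.22 ± 0.06 in shAPT1 and 0.23 ± 0.06 in APT1wt (adjusted p = 0.012 and 0.0093), calls that adjustment for transcript length ended (adjusted p of 0.094 and 0.15), as did the omission of control replicate 3 for the first (0.052). CTNNB1 (beta-catenin) rose by 0.32 ± 0.06 in APT1wt (adjusted p = 0.00087) and measured 0.08 ± 0.06 in shAPT1 (adjusted p = 0.32). CTNND1 (p120-catenin), which holds cadherins at the membrane, was called in APT1wt at 0.17 ± 0.06 (adjusted p = 0.042), a call that 11 of 16 alternatives lost, each omission of a library among them (adjusted p of 0.065 to 0.16). JUP (plakoglobin) passed in neither, at -0.14 ± 0.14 and 0.15 ± 0.14.

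PLEKHA7, which ties the p120-catenin complex to microtubules, had the largest rise of the list. It averaged 3.98 TPM in control cells, 24.1 in shAPT1 cells and 6.32 in APT1wt, with log2 fold changes of 2.61 ± 0.12 (adjusted p = 7.2e-09) and 0.93 ± 0.13 (adjusted p = 0.00017). NECTIN1, an immunoglobulin-type adhesion protein of the same junctions, fell by 0.82 ± 0.11 in shAPT1 (adjusted p = 0.00014) and by 1.18 ± 0.12 in APT1wt (adjusted p = 6.8e-06). AFDN (afadin), the partner of nectins, rose by 0.65 ± 0.07 in APT1wt (adjusted p = 1.9e-05) and 0.25 ± 0.07 in shAPT1 (adjusted p = 0.023). The second of these was lost without control replicate 1 or shAPT1 replicate 2 (adjusted p = 0.1 in each). TJP1, a scaffold of tight junctions, rose by 0.44 ± 0.05 in shAPT1 (adjusted p = 4.9e-05) and by 0.30 ± 0.05 in APT1wt (adjusted p = 0.0011).

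Of 14 processing enzymes, all tested, 3 were called higher and 1 lower in shAPT1, and 1 higher and 1 lower in APT1wt, beside 24.4% and 23.4% of all tested genes called in either direction. ADAM10, which sheds the outer part of classical cadherins and of the PCDHG proteins, rose by 0.50 ± 0.07 in shAPT1 (adjusted p = 0.00016) and was called at 0.21 ± 0.07 in APT1wt (adjusted p = 0.042), a call that was lost without any of the APT1wt libraries or control replicate 1 or 2 (adjusted p of 0.053 to 0.17). PSEN2, a gamma-secretase subunit, was called in APT1wt at -0.31 ± 0.09 (adjusted p = 0.029) and ADAM15 in shAPT1 at -0.27 ± 0.09 (adjusted p = 0.049). The PSEN2 call was lost without APT1wt replicate 1 or 3 or control replicate 1 (0.075 to 0.13), and that of ADAM15 without any control library or shAPT1 replicate 1 or 2 (0.094 to 0.19).

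Of 12 known repressors of CDH1, 6 were tested, with 1 called higher and 1 lower in shAPT1 and 2 higher in APT1wt, beside the same background of 24.4% and 23.4%. TCF4 measured 8.67, 0.371 and 0.469 TPM in the shAPT1 libraries, so that replicate 1 made most of their mean, beside means of 0.0895 TPM in control and 0.0975 TPM in APT1wt. It rose in shAPT1 by 2.10 ± 0.50 (adjusted p = 0.0068), 2.00 without replicate 1 (adjusted p = 0.018), and did not pass with adjustment for transcript length (adjusted p = 0.062). TCF3 fell in shAPT1 by 0.44 ± 0.07 (adjusted p = 0.00047). SNAI1 rose in APT1wt by 1.07 ± 0.27 (adjusted p = 0.011), though not without APT1wt replicate 3 (adjusted p = 0.073) or control replicate 3 (adjusted p = 0.055). SNAI2 rose there by 0.33 ± 0.08 (adjusted p = 0.012), though not without APT1wt replicate 2 (adjusted p = 0.054) or control replicate 3 (adjusted p = 0.073).

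Among 25 superfamily genes that the symbol rule leaves out, 12 were tested, with 4 called higher and 1 lower in shAPT1 and 2 in each direction in APT1wt (24.4% and 23.4% over all tested genes). FAT3, a giant atypical cadherin, averaged 2.70 TPM in control cells, 13.9 in shAPT1 cells and 8.48 in APT1wt, and rose by 2.02 ± 0.18 (adjusted p = 2.6e-06) and 1.31 ± 0.19 (adjusted p = 0.00016). FAT1 fell in APT1wt by 0.84 ± 0.14 (adjusted p = 0.00083), with 51.7 TPM in control and 27.9 in APT1wt, and measured 0.06 ± 0.14 in shAPT1. DSC2, a desmosomal cadherin, rose in shAPT1 by 1.08 ± 0.28 (adjusted p = 0.012; 0.066 without control replicate 3). CLSTN3, a calsyntenin, rose in shAPT1 by 0.86 ± 0.20 (adjusted p = 0.0062; 0.27 with adjustment for transcript length).

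Of 18 chromatin regulators known to act on the protocadherin clusters, all tested, 2 were called higher and 1 lower in shAPT1, and 3 higher and 2 lower in APT1wt, where 24.4% and 23.4% of all tested genes were called. DNMT3B, a DNA methyltransferase, rose by 0.83 ± 0.13 in APT1wt (adjusted p = 0.00043), with means of 3.79 TPM in control and 6.63 in APT1wt, and was called at 0.43 ± 0.14 in shAPT1 (adjusted p = 0.03), which was lost without control replicate 1 or 3 or shAPT1 replicate 2 or 3 (adjusted p of 0.088 to 0.1). The cohesin subunit RAD21 rose in APT1wt by 0.48 ± 0.06 (adjusted p = 4.9e-05), and the cohesin subunit SMC1A fell there by 0.34 ± 0.06 (adjusted p = 0.00081). WIZ was called in APT1wt at -0.29 ± 0.08 (adjusted p = 0.02), lost without APT1wt replicate 3 or control replicate 1 or 3 (adjusted p of 0.069 to 0.094). Whether these genes have a part in the PCDHB levels was not tested.

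Of 14 cytoplasmic partners of protocadherins, all tested, 4 were called higher and 3 lower in shAPT1, and 4 higher and 1 lower in APT1wt, against 24.4% and 23.4% over all tested genes. PTK2 (focal adhesion kinase), which clustered protocadherins bind, rose by 0.55 ± 0.06 in shAPT1 (adjusted p = 1.5e-05) and 0.64 ± 0.06 in APT1wt (adjusted p = 3.3e-06). The actin regulator WASF3 rose by 0.51 ± 0.09 and 0.78 ± 0.09 (adjusted p = 0.00063 and 1.5e-05). CYFIP2, of the same WAVE complex, rose in APT1wt by 1.61 ± 0.21 (adjusted p = 8.8e-05) and measured 0.11 ± 0.24 in shAPT1 (adjusted p = 0.81). FYN, a kinase, rose in shAPT1 by 0.44 ± 0.10 (adjusted p = 0.0064; 0.38 with adjustment for transcript length).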

How the data were processed

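The authors quantified reads per transcript with Salmon on GRCh38.p10, per the submitters' processing notes, and deposited estimated counts and TPM for each of the 9 libraries. Library kit and software versions are not given in the sources used here. A deposited table of the authors' scaled signal per gene was used as an alternative only, and how it was scaled is not stated. Transcript values were summed per gene over 199324 transcripts, and summed counts were rounded. edgeR 4.0.16 (TMM scaling, filterByExpr, quasi-likelihood test, limma 3.58.1, R 4.3.3) was fitted to all 9 libraries, with Benjamini-Hochberg adjustment over all 15233 tested genes, and again with each protocadherin cluster as 1 summed row. The script was tested on simulated data. Every adjusted p comes from these fits unless an alternative is named: DESeq2 1.42.0, limma-voom, other scaling and filters, a transcript length offset, the deposited table on log2(value + 1), fewer samples, a replicate block, and each library left out. Named are CDH11, CDH1, CDH2, CDH3, members past 0.05, members at 0.5 TPM or more, and from each list up to 4 genes with the largest called change, of which 1 is not reported here. Members and lists were chosen with earlier results of these data known. Intervals cover counting error only. Positions are those of GENCODE 29.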

Additional observations from a re-analysis of the deposited data

How the results depend on the processing

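No call of a member changed sign among the 531 alternative values of the 34 member calls, 97 of which lost the call, and 16 calls were kept in every alternative. DESeq2 ended 9 of the 34, and the transcript length offset and the deposited table ended 15 each. A call given above as lost with an omitted library may therefore be lost in these settings as well. The transcript length offset called 2307, 2230 and 2370 genes for shAPT1 and then APT1wt against control and for the direct comparison, in that order, and limma on the deposited table called 2326, 2236 and 2357, where the fit reported called 3719, 3568 and 3829. Both settings called 4 members in the first comparison and 5 in the direct one. At least 20 reads in 3 libraries, which tests fewer genes, left 8 and 7 members called for APT1wt against control and for the direct comparison. Leaving out 1 library gave 2616 to 4096, 2298 to 2983 and 2573 to 4104 genes and 6 to 11, 10 to 13 and 6 to 11 members. The PCDHG sum ranged from -0.55 to -0.25 in shAPT1 and from -0.37 to -0.24 in APT1wt over these omissions. It lost its call in shAPT1 with library totals alone (-0.35, adjusted p = 0.058) and with only the groups compared (-0.38, adjusted p = 0.056). In APT1wt it gained a call without the filter on low counts (-0.28, adjusted p = 0.036), with only the groups compared (-0.30, adjusted p = 0.01) and with the replicate block (-0.29, adjusted p = 0.047). The cause of these changes was not tested. Same-numbered libraries of different groups had correlated deviations of -0.05 to 0.10, so the numbers were not taken as pairs, and the replicate block called 3754, 3625 and 3871 genes and 9, 13 and 11 members. Low reads limit the CDH1, CDH2, CDH3, PCDH1, PCDHA, PCDHB2, PCDHB9, PCDHB10 and PCDHB12 values, and close sequence copies limit those of single PCDHB and PCDHG genes.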
